A study of Homo sapiens with 10 samples.

Results

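Genes of the Notch pathway, 10 in all, were followed across 10 RNA-seq libraries of HaCaT cells, an immortalised human keratinocyte line. The genes were taken by symbol and comprise the receptors NOTCH1, NOTCH2 and NOTCH3, the ligands JAG1, JAG2 and DLL1, the glycosyltransferase LFNG, the coactivator MAML2 and the transcriptional repressors HES1 and HEY1. All 10 of the 10 were found among 22003 features, and all 10 passed the filter on low counts that left 14799 features. The groups were irradiated LBP (n = 3), irradiated vehicle (n = 3), LBP (n = 2) and vehicle (n = 2). LBP is a polysaccharide-glycoprotein preparation from Lycium barbarum, the goji plant. Every culture received LBP or vehicle for 24 h. The irradiated groups then received 12 Gy and the other groups none, with RNA taken 3 h after exposure. The labels give the genotype of all 4 groups as WT, and the cells are a single established line, so each group is a state of that line and not of several donors. The labels number the libraries of each group as repeated experiment groups. Whether they are separate cultures is not stated, and the p-values therefore measure only the spread between these libraries, which may be technical.

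Notch receptors are cut by furin during their passage to the cell surface and bind Jagged or Delta-like ligands on a neighbouring cell. Binding exposes the receptor to an ADAM protease and then to gamma-secretase, and the freed intracellular domain joins the DNA-binding protein RBPJ and a Mastermind-like coactivator in the nucleus. HES and HEY genes are the classical targets. In the epidermis Notch signalling is known for moving keratinocytes out of the basal layer into differentiation, and DLL1 is known as a ligand of basal keratinocytes. LFNG adds N-acetylglucosamine to O-fucose on the receptors, which in cell culture and mouse work favours activation by Delta-like over Jagged ligands. These statements are background and not results of these libraries.

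In GENCODE v29 on GRCh38 all 10 are protein-coding genes. NOTCH1 (ENSG00000148400.10) lies on the minus strand of chromosome 9 from 136494433 to 136545786. DLL1 (ENSG00000198719.8) occupies 170282206 to 170306565 on the minus strand of chromosome 6, where FAM120B overlaps it on the opposite strand. LFNG (ENSG00000106003.12) spans 2512529 to 2529177 on the plus strand of chromosome 7. MAML2 (ENSG00000184384.13) covers 95976598 to 96343180 on the minus strand of chromosome 11, with AP000779.1 and MIR1260B on the opposite strand inside it. HES1 (ENSG00000114315.3) runs from 194136145 to 194138732 on the plus strand of chromosome 3. The strand setting of the counting is not given in the sources used here, so reads of DLL1 and FAM120B, of MAML2 and its opposite-strand neighbours, of NOTCH1 and AL592301.1, and of JAG1 and AL050403.2 cannot be told apart where they overlap. On the same strand AL078605.1 overlaps DLL1, AL512356.1 and MIR6765 overlap JAG2, and a microRNA gene overlaps each of NOTCH1, NOTCH3, JAG1 and LFNG. Strand would not separate these.

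Promoter sequences were available from RefSeq (GRCh38.p14) for 8 of the 10 genes. None was available for HEY1 or for DLL1, which also fell with LBP. The HES1 promoter is printed because HES1 is the textbook target, and those of LFNG and MAML2 because both genes fell with LBP. Capitals mark the RBPJ core TGGGAA or the HES N box CACNAG on either strand. The HES1 stretch is chr3:194135898-194136144 on the plus strand, the LFNG stretch chr7:2512279-2512528 on the plus strand, and the MAML2 stretch chr11:96343196-96343445 on the minus strand, each 5′ to 3′ and ending before the transcript.
HES1: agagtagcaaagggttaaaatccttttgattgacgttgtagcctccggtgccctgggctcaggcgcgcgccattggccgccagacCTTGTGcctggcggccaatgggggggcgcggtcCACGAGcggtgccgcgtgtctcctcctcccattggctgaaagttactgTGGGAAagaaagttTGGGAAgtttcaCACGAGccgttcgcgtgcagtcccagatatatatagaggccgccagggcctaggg
LFNG: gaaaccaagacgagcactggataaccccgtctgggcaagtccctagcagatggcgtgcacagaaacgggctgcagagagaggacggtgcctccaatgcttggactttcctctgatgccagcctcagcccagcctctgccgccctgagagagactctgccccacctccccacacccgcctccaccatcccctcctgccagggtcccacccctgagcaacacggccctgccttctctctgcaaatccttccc
MAML2: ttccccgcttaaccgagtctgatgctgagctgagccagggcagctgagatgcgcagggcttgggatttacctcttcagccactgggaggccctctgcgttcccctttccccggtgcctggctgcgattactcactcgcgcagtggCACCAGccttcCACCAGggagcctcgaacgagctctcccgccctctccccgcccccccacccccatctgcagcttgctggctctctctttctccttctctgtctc
In HES1 the core was found 2 times on the given strand and the N box 3 times over both strands, in MAML2 the N box 2 times, and in LFNG neither at this start. A second LFNG start had 1 core and 1 N box. Over all 8 genes the core was found in 2 and the N box in 4, while in 35116 RefSeq promoters of 250 bases before the start 20.8% held the core and 32% the N box. A match of these letters is a description and not a bound site, and a missing match says only that the letters are not in this window.

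The libraries held 31830506 to 62986831 counts, the shallowest being irradiated LBP replicate 2. The labels name the source as mucosa. All 10 keratinocyte markers exceeded 1 FPKM (read fragments scaled by gene length and library size), as did 8 of 11 markers of simple and mucosal epithelium. Among the latter, KRT8 averaged 1562 FPKM, KRT18 923, KRT7 836, KRT19 758 and EPCAM 108. KRT13 averaged 40.1 FPKM, MUC1 5.24, KRT4 1.27 and MUC4 0.0877. TFF3 was listed at 0 in every library, and MUC5AC had at most 2 counts. The basal keratins KRT5 and KRT14 averaged 1234 and 1807 FPKM. Of the markers of other cells, 1 of 8 for fibroblasts exceeded 1 FPKM on average (COL1A1, 1.03 FPKM), 1 of 8 for leukocytes (CD68, 7.08 FPKM), 1 of 6 for melanocytes (MITF, 1.27 FPKM) and 0 of 6 for endothelium. Others were detected below 1 FPKM, such as COL3A1 with 26 to 98 counts a library and CDH5 with 45 to 112, while PECAM1 and TEK of endothelium, DCN of fibroblasts and TYR of melanocytes were at 0 in every library.

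Per gene length, JAG1 was the most abundant of the 10 genes and NOTCH3 the least. JAG1 averaged 17.2 FPKM over the 10 libraries (range 13.1 to 26.3) and exceeded HES1 in 8 of them. HES1 averaged 13.7 FPKM (10.3 to 21.8) and exceeded NOTCH2 in 9. NOTCH2 averaged 9.56 FPKM (7.82 to 11.0) and stood above NOTCH1 in all 10. The next 3 genes were not separated from their neighbours: NOTCH1 averaged 7.86 FPKM (6.76 to 9.90) and exceeded DLL1 in 5 of 10, and DLL1 averaged 7.52 FPKM (6.06 to 8.98) and exceeded JAG2 in 6 of 10. JAG2 averaged 7.21 FPKM (5.71 to 8.73), above LFNG at 5.17 FPKM (3.49 to 7.47) in all 10. MAML2 averaged 2.62 FPKM (1.94 to 3.80), HEY1 0.451 (0.212 to 0.742) and NOTCH3 0.120 (0.0901 to 0.165), each in that order in all 10 libraries. NOTCH3 rested on 38 to 63 counts a library and HEY1 on 43 to 68, against at least 388 for any other of the genes. The deposited FPKM per CPM (counts scaled by library size) of HEY1 ranged from 0.234 to 0.408 and that of LFNG from 0.345 to 0.398 between libraries, so these FPKM are not the count over 1 fixed length, and the tests use counts.

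**Figure D1:**
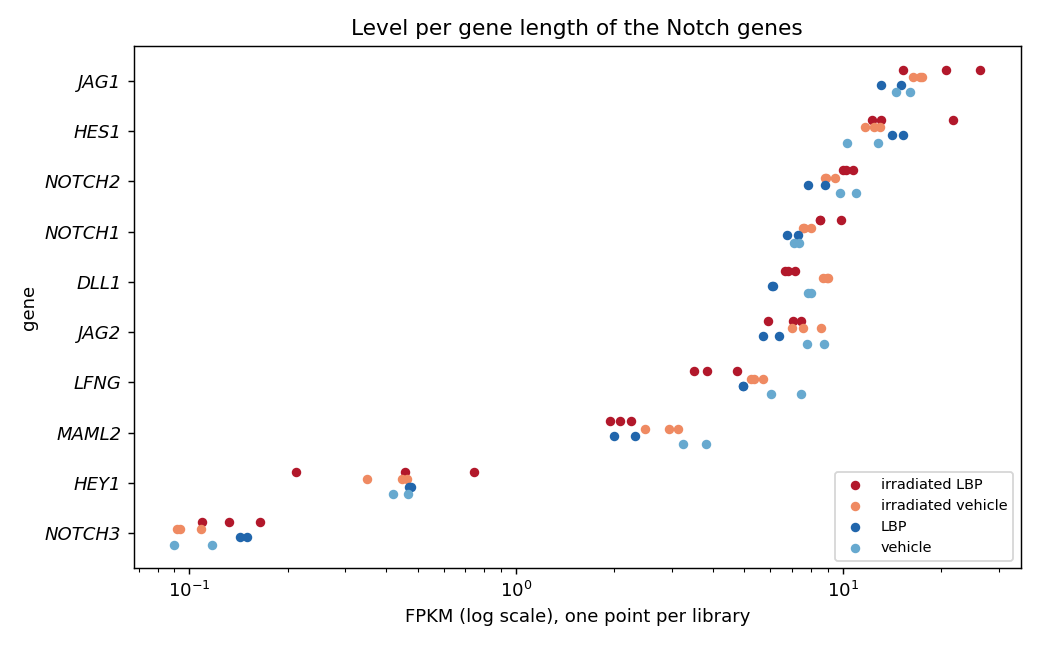
FPKM on a log axis for each of the 10 Notch genes, 1 point per library, coloured by group, with genes ordered by their mean over the 10 libraries. JAG1 and HES1 lie highest, NOTCH1, DLL1 and JAG2 share a range of about the same FPKM, and HEY1 and NOTCH3 lie below 1 FPKM in every library.

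In irradiated cells, LBP lowered DLL1, LFNG and MAML2, to folds of 0.781, 0.737 and 0.736, while edgeR called no gene of the 10 higher. DESeq2 called these 3 and also NOTCH1, as higher, and limma on log2(FPKM + 1) called 1. Over all features edgeR called 645, DESeq2 1228 and limma 313. The share edgeR called lower among all features tested was 1.57% (4.36% in either direction), against these 3 of 10. The genes were chosen with earlier results of these data known, so this contrast and the like ones below are descriptions, not tests of the pathway. The median log2 fold change of the 10 genes was 0.22, beside 0.01 over all features, since most of the others had positive values that did not pass the threshold. The median size of the change regardless of sign was 0.33 on the log2 scale for the 10 genes and 0.14 for all features. LBP and vehicle groups did not overlap for 6 of the 10 genes, 3 above and 3 below, where 27.5% of all features did not overlap.

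DLL1, a transmembrane ligand, had 30.0, 28.0 and 31.2 CPM in irradiated LBP libraries, against 37.7, 38.0 and 38.7 CPM in irradiated vehicle libraries. Every irradiated LBP library was lower than every irradiated vehicle library. The log2 fold change was -0.36 ± 0.07 (SE; 95% interval -0.50 to -0.21; adjusted p = 0.0133 in edgeR's quasi-likelihood test). LFNG, which modifies the receptors in the Golgi, had 9.92, 12.0 and 10.7 CPM in irradiated LBP libraries and 15.4, 14.7 and 14.2 CPM in irradiated vehicle libraries, again without overlap. Its log2 fold change was -0.44 ± 0.10 (interval -0.66 to -0.22; adjusted p = 0.0352). MAML2, which bridges the Notch and RBPJ complex to histone acetyltransferases, had 15.8, 17.5 and 16.9 CPM in irradiated LBP libraries and 24.5, 23.8 and 20.0 CPM in irradiated vehicle libraries. All irradiated LBP libraries were lower, with irradiated vehicle replicate 3 the nearest to them, and the log2 fold change was -0.44 ± 0.10 (interval -0.67 to -0.22; adjusted p = 0.0352).

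These 3 calls rested on few libraries. The DLL1 call was lost without irradiated vehicle replicate 1, 2 or 3 (adjusted p 0.0519, 0.0558 and 0.0549), with adjusted p from 0.000401 to 0.0558 over 14 alternatives. For LFNG, 7 of 14 alternatives lost the call (0.0056 to 0.119 over all 14): both limma fits of FPKM (0.105 and 0.0985), irradiated vehicle replicates 1, 2 and 3 left out (0.119, 0.107 and 0.0759), and irradiated LBP replicates 1 and 3 left out (0.101 and 0.0812). For MAML2, 6 of 14 did (0.00297 to 0.13 over all 14): both limma fits (0.104 and 0.105), irradiated vehicle replicates 1 and 2 left out (0.125 and 0.13), and irradiated LBP replicates 1 and 3 left out (0.099 and 0.0716). The log2 fold changes stayed below 0 in all of these, from -0.39 to -0.32 for DLL1, -0.51 to -0.36 for LFNG and -0.53 to -0.31 for MAML2.

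The 3 receptors were higher in every irradiated LBP library than in any irradiated vehicle library, but none passed the threshold. NOTCH1 had 94.9, 90.4 and 109 CPM in irradiated LBP libraries, against 85.1, 83.2 and 82.4 CPM in irradiated vehicle libraries (log2 fold change 0.23 ± 0.07, adjusted p = 0.0962 in edgeR; 0.0488 to 0.236 over the alternatives, the lowest with DESeq2). NOTCH2 averaged 135 ± 7.09 CPM in irradiated LBP libraries and 117 ± 6.40 CPM in irradiated vehicle libraries (SD, n = 3 each), a log2 fold change of 0.20 ± 0.07 with an adjusted p of 0.136. NOTCH3 had 1.14, 1.63 and 1.34 CPM in irradiated LBP libraries and 0.934, 0.931 and 1.03 CPM in irradiated vehicle libraries, a log2 fold change of 0.50 ± 0.22 that did not pass (adjusted p = 0.214).

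JAG1 and HES1 varied widely among the irradiated LBP libraries. JAG1, the ligand with the highest FPKM, had 144, 101 and 180 CPM in irradiated LBP libraries, against 114, 119 and 111 CPM in irradiated vehicle libraries. HES1, the repressor and classical target, had 24.1, 21.5 and 39.7 CPM in irradiated LBP libraries and 21.9, 21.3 and 23.4 CPM in irradiated vehicle libraries. In both genes replicate 3 of irradiated LBP was highest and replicate 2 lowest of its group, and the groups overlapped. The log2 fold change of JAG1 was 0.31 ± 0.15 (adjusted p = 0.263). Leaving out irradiated LBP replicate 2 gave 0.50 with an adjusted p of 0.0163, and leaving out replicate 3 gave 0.10 with 0.702, which is the range over all alternatives. For HES1 it was 0.36 ± 0.18 (adjusted p = 0.274), 0.52 without irradiated LBP replicate 2 and 0.04 without replicate 3 (adjusted p from 0.102 to 0.874 over the alternatives). JAG2 had a log2 fold change of -0.17 ± 0.10 and HEY1 of 0.24 ± 0.27, with overlapping groups and adjusted p of 0.34 and 0.65.

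**Figure D2:**
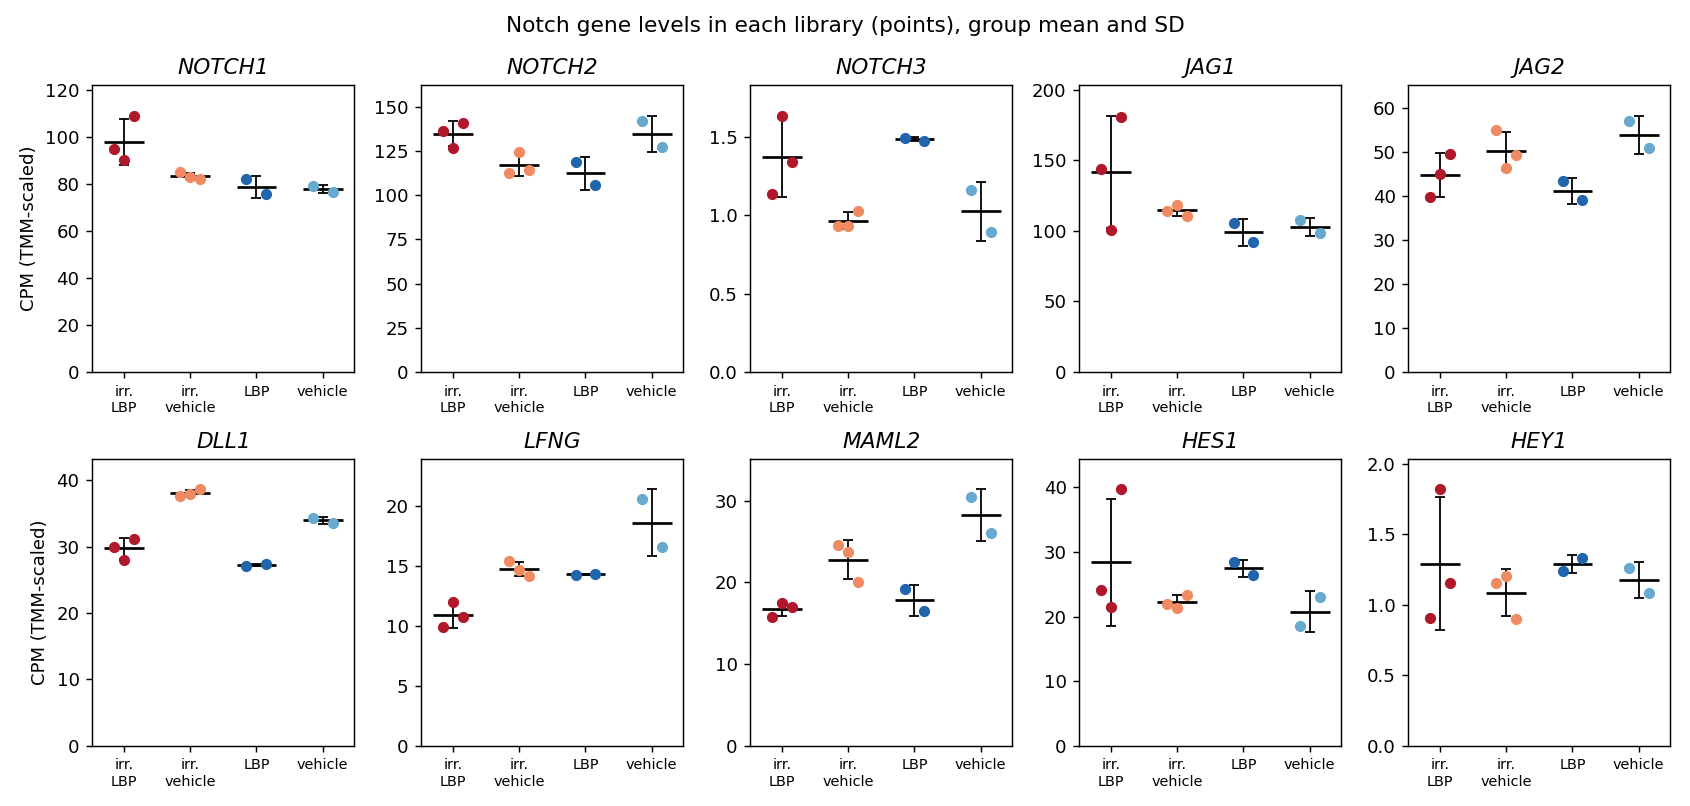
CPM of each of the 10 Notch genes in the 4 groups, 1 point per library, with the group mean as a line and the SD as a bar, each panel on its own axis from 0. DLL1, LFNG and MAML2 are lower in the LBP group of each pair, and JAG1 and HES1 spread widely among the 3 irradiated LBP libraries.

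In non-irradiated cells, MAML2 was the gene of the 10 that fell with LBP, and none was called higher in edgeR. DESeq2 called 2 of the 10 and limma 0, where over all features they called 374 and 62. The share edgeR called lower among all features was 0.264% (0.804% in either direction), against 1 of 10 here. MAML2 had 19.2 and 16.5 CPM in LBP libraries, against 30.4 and 26.0 CPM in vehicle libraries. Both LBP libraries were lower than both vehicle libraries, with a log2 fold change of -0.66 ± 0.13 (95% interval -0.94 to -0.39; fold 0.632; adjusted p = 0.0313 in edgeR). The call was lost in both limma fits (adjusted p 0.1 and 0.0991). Leaving out a library here left 1 in a group, so whether the call holds without it cannot be judged. The log2 fold change stayed between -0.78 and -0.52 over all 12 alternatives.

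DLL1, LFNG and JAG2 lay lower in both LBP libraries than in both vehicle libraries without passing the threshold. DLL1 had 27.1 and 27.4 CPM in LBP libraries and 34.4 and 33.6 CPM in vehicle libraries (log2 fold change -0.32 ± 0.08, adjusted p = 0.109 in edgeR; 0.0421 to 0.512 over the alternatives, the lowest with DESeq2). LFNG had 14.2 and 14.3 CPM in LBP libraries and 20.6 and 16.6 CPM in vehicle libraries (-0.38 ± 0.12, adjusted p = 0.214). JAG2, a second Jagged ligand, had 43.4 and 39.1 CPM in LBP libraries and 57.1 and 50.9 CPM in vehicle libraries (-0.39 ± 0.12, adjusted p = 0.176). HES1 stood at 28.4 and 26.5 CPM in LBP libraries and 18.5 and 23.0 CPM in vehicle libraries, higher in both LBP libraries (0.40 ± 0.22, adjusted p = 0.46). In all, groups did not overlap for 2 genes above and 5 below, where 45.5% of all features did not overlap with 2 libraries a group. NOTCH1 and JAG1 overlapped between the groups, with log2 fold changes of 0.02 ± 0.09 and -0.06 ± 0.19; that of NOTCH1 was -0.0146 when libraries were scaled by their size alone.

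Averaged over both radiation states, LBP lowered 4 of the 10 genes, where 2.93% of all features were called lower and 6.93% in either direction. MAML2 fell by 0.55 ± 0.08 on the log2 scale (adjusted p = 0.00233 in edgeR) and DLL1 by 0.34 ± 0.05 (adjusted p = 0.00318). For both genes every LBP library, irradiated or not, was below every vehicle library, a pattern that 3.26% of all features had in that direction. Neither call was lost in any of 17 alternatives, whose highest adjusted p was 0.0182 for MAML2 and 0.0202 for DLL1. LFNG fell by 0.41 ± 0.08 (adjusted p = 0.0128), and its call was lost in 1 of 17, without vehicle replicate 1 (-0.34, adjusted p = 0.0659, the highest of the 17). JAG2 fell by 0.28 ± 0.08 (adjusted p = 0.0483). Of 17 alternatives 11 lost this call: both limma fits (0.0835 and 0.0768) and the omission of any library but irradiated LBP replicate 3, with adjusted p from 0.00766 to 0.182 over all 17. This average uses the same libraries as the comparisons above and is no independent evidence. The positive values of NOTCH3 (0.52 ± 0.17, adjusted p = 0.094) and HES1 (0.38 ± 0.14, adjusted p = 0.14) did not pass.

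None of the 10 genes passed the test of whether the LBP effect differed between irradiated and non-irradiated cells, in edgeR, DESeq2 or limma, where 0.0135% of all features did. An unadjusted p under 0.05 was found for 1, NOTCH2. NOTCH2 had 136, 127 and 141 CPM in irradiated LBP libraries, against 113, 125 and 114 CPM in irradiated vehicle libraries, and 119 and 106 CPM in LBP libraries, against 142 and 127 CPM in vehicle libraries. LBP libraries were thus the higher ones after irradiation and the lower ones without it, with no overlap in either case. The log2 fold change was 0.20 ± 0.07 in irradiated and -0.26 ± 0.09 in non-irradiated cells, a difference of 0.46 ± 0.12 (unadjusted p = 0.00179, adjusted p = 0.574). The near-identical NOTCH2NL copies hold counts equal to 11.8 to 20.7% of those of NOTCH2, and the authors' counting could split reads between them. The differences for MAML2 (0.22 ± 0.16), DLL1 (-0.04 ± 0.10) and LFNG (-0.06 ± 0.16) had adjusted p of at least 0.72; those of DLL1 and LFNG were just above 0 in the limma fits.

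**Figure D3:**
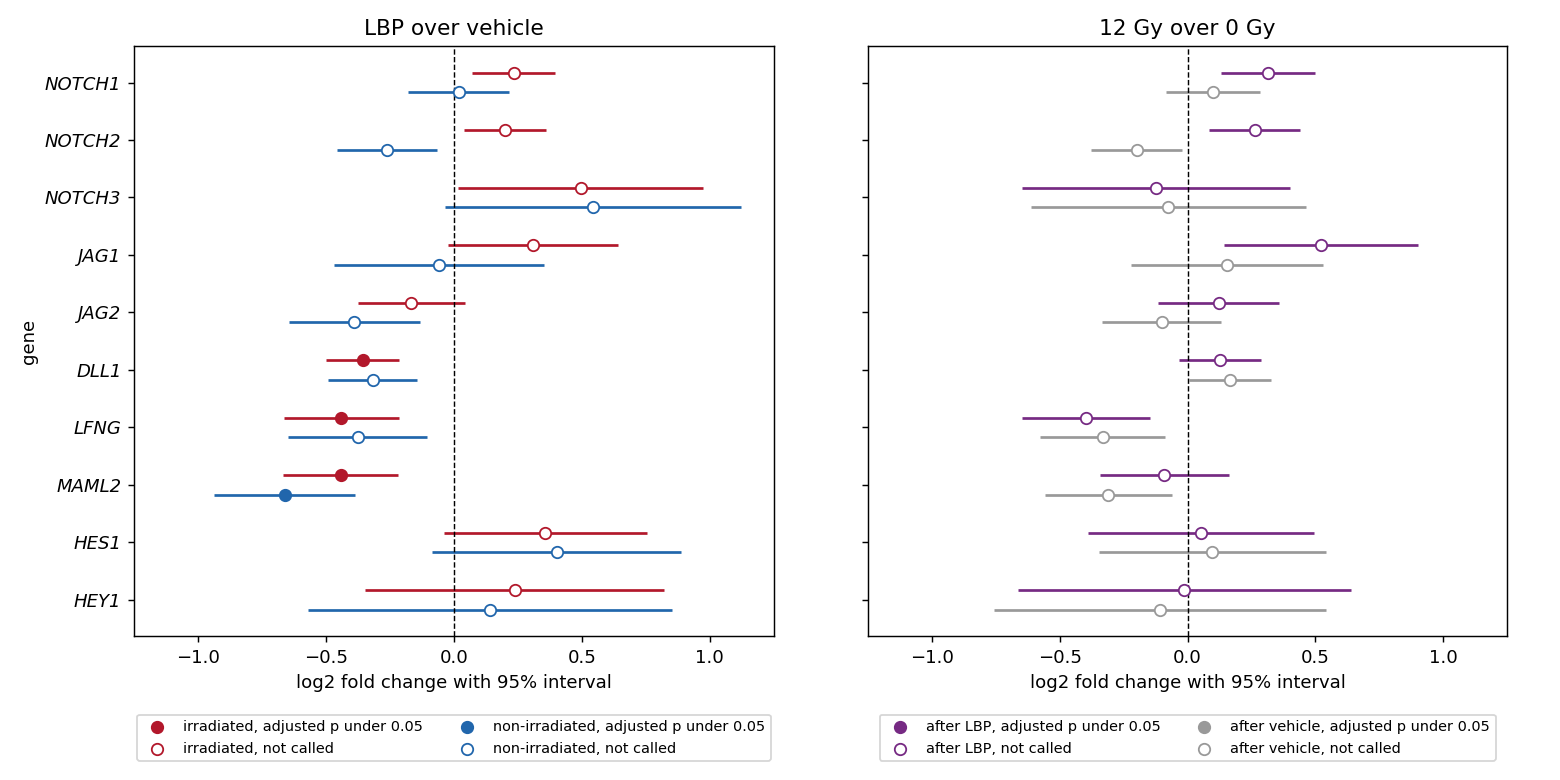
Log2 fold changes of the 10 Notch genes with 95% intervals, for LBP over vehicle in irradiated and in non-irradiated cells (left) and for 12 Gy over 0 Gy after LBP and after vehicle (right); filled points have an adjusted p under 0.05. The filled points are DLL1, LFNG and MAML2 in irradiated cells and MAML2 in non-irradiated cells, and none is filled for radiation.

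At 3 h after 12 Gy, none of the 10 genes was called in edgeR, after LBP or after vehicle. An unadjusted p under 0.05 was found for 4 after LBP and 4 after vehicle. The share of all features at that threshold is not given, so such counts, here and elsewhere, cannot be set against a background. DESeq2 called 1 after LBP and 0 after vehicle, and limma on FPKM called 0 in both. Over all features DESeq2 called 184 after LBP and 129 after vehicle. In edgeR few features were called at all, 0.142% after LBP and 0.439% after vehicle. A count of 0 in 10 is near that background. The irradiated LBP and irradiated vehicle libraries used here are those of the LBP comparison, so the results are not independent of it.

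After LBP, NOTCH1 averaged 98.2 ± 9.82 CPM in irradiated LBP libraries (SD, n = 3) and 79.0 ± 4.72 CPM in LBP libraries (SD, n = 2). All irradiated LBP libraries were higher, with a log2 fold change of 0.31 ± 0.08 (adjusted p = 0.23 in edgeR; 0.0376 to 0.902 over the alternatives, the lowest with DESeq2). JAG1 averaged 142 ± 39.9 CPM in irradiated LBP libraries and 98.9 ± 9.23 CPM in LBP libraries, a log2 fold change of 0.52 ± 0.17 (adjusted p = 0.28). It was 0.71 with an adjusted p of 0.0239 without irradiated LBP replicate 2 and 0.32 without replicate 3 (0.0239 to 0.902 over the alternatives). LFNG averaged 10.9 ± 1.02 CPM in irradiated LBP libraries and 14.3 ± 0.0588 CPM in LBP libraries, lower in each (-0.40 ± 0.11, adjusted p = 0.245). Groups did not overlap for NOTCH1, NOTCH2 and DLL1 above and LFNG below, 4 of 10, where 28% of all features did not.

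After vehicle, LFNG averaged 14.7 ± 0.603 CPM in irradiated vehicle libraries (SD, n = 3) and 18.6 ± 2.79 CPM in vehicle libraries (SD, n = 2), a log2 fold change of -0.33 ± 0.11 (adjusted p = 0.56 in edgeR). MAML2 averaged 22.8 ± 2.42 CPM in irradiated vehicle libraries and 28.2 ± 3.14 CPM in vehicle libraries (-0.31 ± 0.11, adjusted p = 0.605). DLL1 stood at 38.1 ± 0.492 CPM in irradiated vehicle libraries and 34.0 ± 0.544 CPM in vehicle libraries (0.17 ± 0.07, adjusted p = 0.71). Groups did not overlap for 3 genes above (NOTCH1, JAG1 and DLL1) and 3 below (NOTCH2, LFNG and MAML2), where 27.6% of all features did not. Averaged over both pretreatments, 0 of 10 were called in edgeR (5 at an unadjusted p under 0.05, 1 in DESeq2, 0 in limma), where 0.561% of all features were. LFNG came closest, at -0.36 ± 0.08 (adjusted p = 0.0898; 0.0099 with DESeq2 to 0.396 over the alternatives). HES1 and HEY1 had log2 fold changes between -0.11 and 0.10 after either pretreatment, and their sign depended on the libraries used.

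The ligands were also set against each other in FPKM. JAG1 gave 62.0, 52.7 and 64.3% of the summed JAG1, JAG2 and DLL1 FPKM in irradiated LBP libraries and 49.6, 52.7 and 49.8% in irradiated vehicle libraries. In non-irradiated cells the share was 54.7 and 52.6% in LBP libraries and 48.9 and 48.3% in vehicle libraries. DLL1 gave 20.3, 23.0 and 17.4% in irradiated LBP libraries and 25.8, 26.2 and 27.3% in irradiated vehicle libraries. In non-irradiated cells it gave 22.1 and 24.5% in LBP libraries and 24.5 and 25.9% in vehicle libraries, with overlap. The DLL1 share was lower in every irradiated LBP library, while the JAG1 share of replicate 2 fell within the irradiated vehicle range. Among the receptors, NOTCH1 held 44.1 to 47.7% of the summed FPKM in both irradiated groups and in LBP libraries, and 39.8 and 41.7% in vehicle libraries. These shares are descriptions without a test.

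Beyond the 10 genes, 87 others of the pathway were in the table and 82 were tested. In irradiated cells edgeR called 2 of them with LBP, ADAM17 higher and HDAC2 lower, or 2.44% of the 82, against 4.36% of all features. Over all features edgeR called 645, DESeq2 1228 and limma 313. Of the 82, DESeq2 called 6 and limma 1, and 14 had an unadjusted p under 0.05. Their median log2 fold change was 0.02. ADAM17, one of the surface proteases that can cut Notch, had 77.4, 71.1 and 71.0 CPM in irradiated LBP libraries, against 51.5, 58.3 and 53.5 CPM in irradiated vehicle libraries. Every irradiated LBP library was higher (0.43 ± 0.08, adjusted p = 0.0167 in edgeR), and the call was lost without irradiated vehicle replicate 1 or 3 or irradiated LBP replicate 1 (adjusted p 0.085, 0.0644 and 0.0519), with adjusted p from 0.000167 to 0.085 over 14 alternatives. HDAC2, a histone deacetylase found in corepressor complexes, had 111, 122 and 102 CPM in irradiated LBP libraries and 138, 139 and 146 CPM in irradiated vehicle libraries, lower in each irradiated LBP library. Its log2 fold change was -0.34 ± 0.07 (adjusted p = 0.0229), lost in 7 of 14 alternatives (0.000752 to 0.0826 over all 14): both limma fits, irradiated vehicle replicate 1, 2 or 3 left out (0.0722, 0.0765 and 0.0826), and irradiated LBP replicate 1 or 3 left out (0.0571 and 0.0522).

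By role, none of 7 other receptors and ligands tested, 11 glycosylation genes, 17 genes of ubiquitin transfer and endocytosis or 15 HES, HEY and target genes was called by edgeR with LBP in irradiated cells. DESeq2 called 1 of the 17 and none of the other 3 lists, and an unadjusted p under 0.05 was found for 6 of the 17 and 1 of the 15. The lists of 8 protease genes and 24 nuclear genes gave the edgeR calls of ADAM17 and HDAC2. In non-irradiated cells 0 of the 82 were called with LBP in edgeR, DESeq2 or limma (15 at an unadjusted p under 0.05). Radiation called 0 of the 82 in edgeR and limma after either pretreatment, and 1 in DESeq2 after each, with 19 after LBP and 7 after vehicle at an unadjusted p under 0.05. RBPJ averaged 6.18 FPKM, HES2 14.1 FPKM and HES4 7.64 FPKM over the 10 libraries. NOTCH4 (0.0299 FPKM), DLL4 (0.0545 FPKM) and DLL3 (0.165 FPKM) were near 0, and HEYL was listed at 0 in every library.

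NRARP, a target that encodes a feedback inhibitor of Notch, was singled out after its values were seen. It had 17.5, 19.2 and 22.7 CPM in irradiated LBP libraries and 16.9, 18.7 and 18.8 CPM in irradiated vehicle libraries. In non-irradiated cells it had 16.0 and 15.9 CPM in LBP libraries and 13.9 and 14.2 CPM in vehicle libraries. Each irradiated library was above every non-irradiated library. The effect of 12 Gy did not pass the threshold after LBP (0.31 ± 0.11, adjusted p = 0.296 in edgeR) or after vehicle (0.36 ± 0.11, adjusted p = 0.473). This separation was not particular to NRARP. Its share among all features is not given here, so the separation cannot be weighed. NOTCH1 had it too, narrowly, with 82.4 CPM in irradiated vehicle replicate 3 and 82.3 CPM in LBP replicate 1. Averaged over both pretreatments, 12 Gy gave NOTCH1 0.21 ± 0.06, which did not pass (adjusted p = 0.236 in edgeR).

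**Figure D4:**
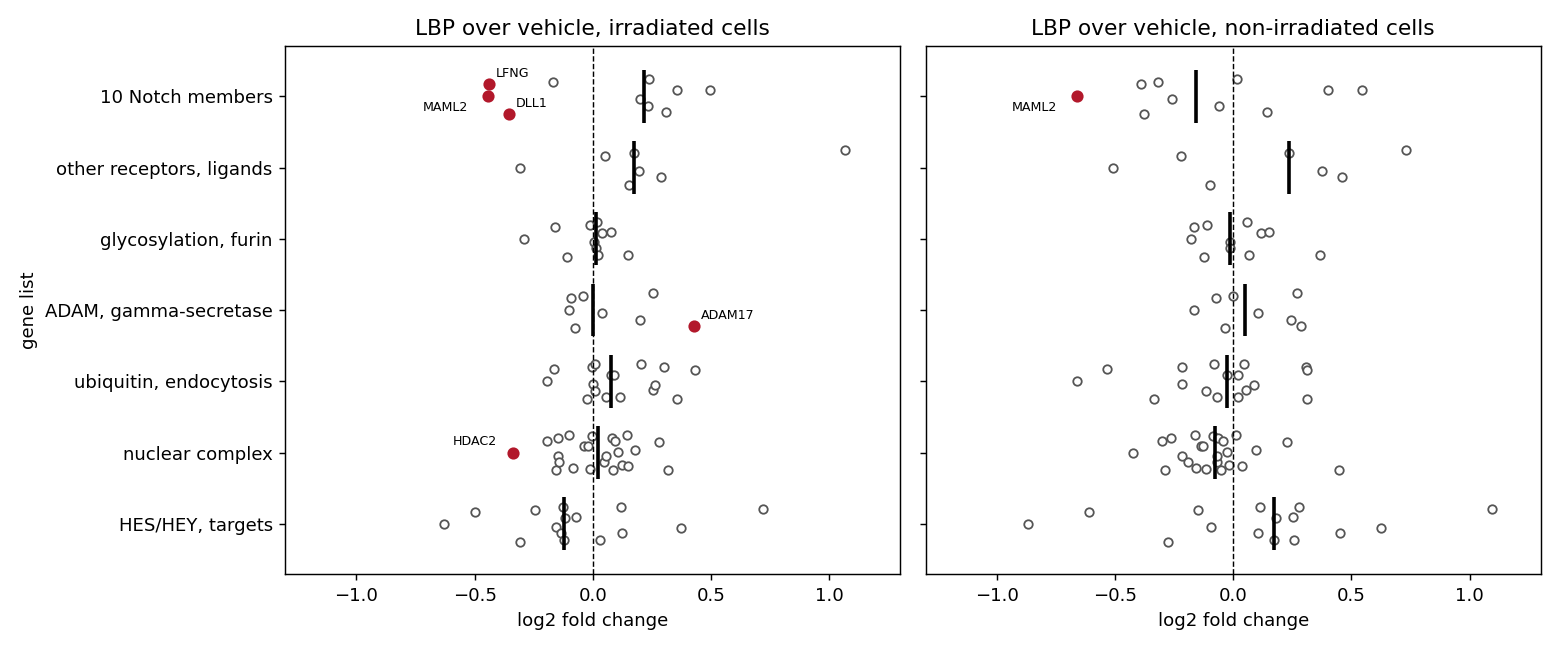
Log2 fold changes for LBP over vehicle of every tested gene in the 10 Notch genes and the 6 lists of other pathway genes, in irradiated (left) and non-irradiated cells (right), with the list median as a vertical bar; filled points have an adjusted p under 0.05 and are named. In irradiated cells the filled points are DLL1, LFNG, MAML2 and HDAC2 below 0 and ADAM17 above it, and in non-irradiated cells MAML2 is filled.

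Keratinocyte genes differed between the same libraries. With LBP in irradiated cells, 5 of 17 tested differentiation genes and 3 of 14 basal genes rose in edgeR and none fell, where 4.36% of all features were called in either direction. Their median log2 fold changes were 0.27 and 0.19, with ranges of -0.47 to 1.43 and -0.02 to 0.50, so the members did not all rise. Over all features DESeq2 called 1228 and limma 313, against 645 in edgeR. Of these lists DESeq2 called 6 and 5, and limma 3 and 2. FLG, the precursor of filaggrin, averaged 218 ± 50.5 CPM in irradiated LBP libraries and 105 ± 23.9 CPM in irradiated vehicle libraries (SD, n = 3 each; log2 fold change 1.06 ± 0.17, adjusted p = 0.0072 in edgeR), a call kept in all 14 alternatives (highest adjusted p 0.0417). TGM1, a transglutaminase of the cornified envelope, rose by 0.87 ± 0.18 (adjusted p = 0.0227), lost without irradiated vehicle replicate 1 or 2 or irradiated LBP replicate 3 (0.0911, 0.0885 and 0.0643; 2.08e-05 to 0.0911 over 14 alternatives). TP63, the master regulator of basal keratinocytes, rose by 0.41 (adjusted p = 0.0226), lost without irradiated vehicle replicate 1, 2 or 3 or irradiated LBP replicate 1 (0.0922, 0.0903, 0.061 and 0.066; 0.000244 to 0.0922 over 14 alternatives). The other genes named by the rule were SERPINB3 (0.91) and PPL (0.34) of differentiation and EGFR (0.41) and LAMB3 (0.46) of the basal list. Their calls were lost in 4, 6, 4 and 8 of 14 alternatives. KRT10, a keratin of differentiating cells, overlapped between the groups with LBP in irradiated cells (0.03 ± 0.07, adjusted p = 0.865 in edgeR). In non-irradiated cells KRT10 was the 1 gene that edgeR called in these lists, where 0.804% of all features were called. DESeq2 called 3 differentiation and 1 basal gene there, and limma 1 and 0, where over all features they called 374 and 62. KRT10 had 69.4 and 69.7 CPM in LBP libraries and 45.9 and 52.2 CPM in vehicle libraries (0.50 ± 0.08, adjusted p = 0.013 in edgeR). Leaving out a library there left 1 in a group, so whether this call holds without it cannot be judged. The log2 fold change stayed between 0.40 and 0.60 over 12 alternatives.

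Sums of marker FPKM are given without a test. The 11 markers of simple and mucosal epithelium summed to 3538 to 4032 FPKM in irradiated LBP libraries, against 4087 to 4664 FPKM in irradiated vehicle libraries, and to 3909 to 4514 FPKM in LBP libraries, against 4517 to 4710 FPKM in vehicle libraries. Within this list and with LBP in irradiated cells, KRT18 fell by 0.36 (adjusted p = 0.035 in edgeR) and MUC1 rose by 0.58 (adjusted p = 0.0078), so its members did not all go one way; both genes were singled out after their values were seen. The 10 keratinocyte markers summed to 6388 to 6598 FPKM in irradiated LBP libraries and 5456 to 6482 FPKM in irradiated vehicle libraries, and to 6855 to 7110 FPKM in LBP libraries and 5682 to 6117 FPKM in vehicle libraries, with overlap in irradiated cells. Their part in the Notch results was not tested, and in bulk RNA fewer cells of a type and less RNA per cell cannot be told apart.

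Over the 10 libraries some of the genes varied together and others in opposite directions. Pearson's r of log2 CPM was 0.903 between NOTCH1 and JAG1, 0.882 between LFNG and MAML2, 0.81 between JAG2 and MAML2, and 0.68 between JAG2 and DLL1. NOTCH3 and DLL1 gave -0.865, and NOTCH1 and LFNG -0.774. The libraries share the treatment groups, so these values describe group differences and library scatter together. Among tested genes of mean log2 CPM of at least 1, the closest to DLL1 were SLC16A9 (r = 0.983), TLR2 (0.97) and IL32 (0.958). Closest to LFNG were POLH (0.976), ZNF488 (0.975) and RBMS2 (0.968), and closest to MAML2 were EPB41 (0.979), CEP170 (0.969) and APAF1 (0.967). Each was picked as the highest among many genes over only 10 libraries, and is a description without a test.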

How the data were processed

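RNA-seq was analysed for 10 HaCaT libraries, grouped by their labels. HISAT2 and the build GRCh38 are named in the submitters' processing notes without versions; how reads were counted, on which strand and with which annotation is not given there. The authors deposited whole-number counts per gene and a second table of FPKM, scaled by length and library size. Even values exceeded odd ones among low counts (6040 values of 2, 1398 of 1 and 3256 of 3), so counting error may exceed what the counts alone give. Replicates differed by more than counting noise (chi-square per degree of freedom 10.7 to 36.8).

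The test was edgeR 4.0.16 (R 4.3.3) on these counts: filterByExpr with a minimum count of 10, TMM scaling, and a quasi-likelihood fit of 4 group means to all 10 libraries (6 residual and 6.06 prior degrees of freedom). P-values were adjusted by Benjamini-Hochberg over 14799 features, with calls under 0.05; this test gives every adjusted p unless another tool is named. CPM are TMM-scaled. DESeq2 1.42.0, limma 3.58.1 on log2(FPKM + 1) or log2(FPKM + 0.1), 2 other scalings, no filter, fits of the compared groups alone, a replicate block and omission of each library were alternatives. Omission of a non-irradiated library left 1 in its group, and calls from such fits say little. Scripts were checked on simulated counts. The genes, the lists and the rule for naming other genes (up to 4 called per list and comparison by smallest p, and the 3 genes most correlated with each called member) were chosen with earlier results of these data known.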

Additional observations from a re-analysis of the deposited data

Results flagged for a closer look

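NOTCH2 stood out because LBP libraries lay above vehicle libraries in irradiated cells and below them in non-irradiated cells, without overlap in either. The log2 fold change was 0.46 larger in irradiated than in non-irradiated cells, and the test of this difference did not pass after adjustment (adjusted p = 0.574 in edgeR). When the counts of the near-identical NOTCH2NL copies were added to those of NOTCH2, an alternative chosen after seeing the data, the difference was 0.40 ± 0.12 (adjusted p = 0.574), with log2 fold changes of 0.17 in irradiated and -0.23 in non-irradiated cells.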

How the results depend on the processing

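Of the values of the Notch genes, the counts of called genes moved with the tool and with single libraries. With LBP in irradiated cells 3 of the 10 genes were called in edgeR, 4 in DESeq2 (NOTCH1 added, as higher), 1 in each limma fit, and 0 to 4 when a library was left out. In non-irradiated cells 1 was called in edgeR, 2 in DESeq2 and 0 in each limma fit. Leaving out a library there leaves 1 in a group, so calls from those fits are not read. For 12 Gy after LBP the count of 0 became 1 in DESeq2 and 0 to 1 with a library left out, and for 12 Gy averaged over both pretreatments 1 in DESeq2 and 0 to 2. For LBP averaged over both radiation states the 4 became 2 to 4. Without irradiated LBP replicate 2, LFNG (-0.40, adjusted p = 0.0381) and JAG1 (0.43, adjusted p = 0.0152; up to 0.818 over the alternatives) passed for 12 Gy averaged, and HES1 passed for LBP averaged (0.46, adjusted p = 0.0498; up to 0.392).

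Over all features, LBP in irradiated cells gave 645 calls, 1228 in DESeq2, 409 with the compared groups alone, 313 and 304 in limma, and 176 to 722 with a library left out. LBP in non-irradiated cells gave 119, 188 without the filter, 374, 278, 62 and 69, and 38 to 52. For 12 Gy after LBP the counts were 21, 45 without the filter, 184, 10, 10 and 11, and 8 to 51, and for 12 Gy after vehicle 65, 129, 109, 37 and 41, and 25 to 35. LBP averaged gave 1025, 566 and 588 in limma, and 309 to 1141, and 12 Gy averaged 83, 211 in DESeq2, and 59 to 177. The interaction gave 2, 7 without the filter, 16 in DESeq2, 4 in limma with 0.1, 1 with the block, and 0 to 5. The cause was not tested.

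Signs turned only among log2 fold changes that passed no threshold. NOTCH1 with LBP in non-irradiated cells was -0.0146 by library size alone, -0.0330 and -0.0372 in limma. HEY1 for 12 Gy after LBP was 0.0373 by library size alone. In limma the interaction was 0.00312 and 0.00808 for DLL1, 0.0165 and 0.00330 for LFNG, and -0.0567 for HEY1 with 0.1 added. With the replicate number as a block, 12 Gy gave HES1 -0.145 and HEY1 0.0690 after LBP, HES1 -0.0545 after vehicle, and JAG2 -0.0212, HES1 -0.0998 and HEY1 0.0236 on average. The block changed no call of the 10 genes. Over all features it gave 813 calls with LBP in irradiated cells, 148 in non-irradiated cells and 1189 averaged. For 12 Gy it gave 31 after LBP, 56 after vehicle and 75 averaged. Same-numbered libraries correlated at -0.161 to 0.11 in their deviations from group means. This check is weak, since deviations mirror each other in groups of 2. The labels do not say whether a number marks a shared run, and the numbers were not taken as pairs.

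Leaving out 1 library moved these log2 fold changes across 0. With LBP in irradiated cells HEY1 ranged from -0.0743 to 0.443, and in non-irradiated cells NOTCH1 from -0.0533 to 0.0782 and JAG1 from -0.166 to 0.0344. For 12 Gy after LBP NOTCH3 ranged from -0.263 to 0.00258, MAML2 from -0.199 to 0.0280, HES1 from -0.259 to 0.215 and HEY1 from -0.324 to 0.200; after vehicle NOTCH3 ranged from -0.252 to 0.111, HES1 from -0.0518 to 0.277 and HEY1 from -0.210 to 0.0154. On average LBP gave NOTCH2 -0.0810 to 0.00775, and 12 Gy gave NOTCH2 -0.00906 to 0.0795, JAG2 -0.0263 to 0.0547, HES1 -0.0803 to 0.165 and HEY1 -0.216 to 0.0479. The interaction ranged from -0.233 to 0.130 for NOTCH3, -0.0702 to 0.00168 for DLL1, -0.220 to 0.0748 for LFNG, -0.358 to 0.118 for HES1 and -0.216 to 0.305 for HEY1. NOTCH3 and HEY1 had at most 68 counts a library, which limits their precision.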
